A study of Mus musculus with 6 samples.

Results

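The *Ly6* family was examined in monocytes of the inflamed central nervous system (CNS). It comprised 7 genes, *Ly6a*, *Ly6c1*, *Ly6c2*, *Ly6d*, *Ly6e*, *Ly6g* and *Ly6i*, taken by name out of the 54232 genes of the deposited tables. There were 6 RNA-seq libraries, 3 of WT (CD45.1) and 3 of *Ifnar1*-/- (CD45.2) monocytes. Both came from GFP+ recipients that were irradiated, given WT and *Ifnar1*-/- bone marrow in equal parts, and immunized to develop experimental autoimmune encephalomyelitis (EAE), a model of multiple sclerosis, 6 to 7 weeks later. All recipients received 30000 IU of IFN-β daily, and no library came from untreated mice. At the peak of disease, donor cells were sorted from the CNS as GFP-, CD45+, CD11b+, Ly6C-high and Ly6G-. IFNAR1 is a chain of the receptor for type I IFN, so the comparison was of monocytes that had this receptor or lacked it, in treated mice. Because every WT donor was CD45.1 and every *Ifnar1*-/- donor CD45.2, the receptor genotype and the donor strain cannot be told apart.

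Ly6 proteins are small, mostly lipid-anchored proteins of the outer cell membrane, built around a three-finger fold that is called the LU domain. In the mouse they serve as surface markers of blood cells: Ly6C, encoded by *Ly6c1* and *Ly6c2*, marks inflammatory monocytes, and Ly6G marks neutrophils. Several members, among them *Ly6a* (Sca-1), *Ly6c2* and *Ly6e*, are known to respond to IFN. Since the gate required high Ly6C protein and no Ly6G protein in both genotypes, the levels given here are RNA levels of cells that had already passed that gate. Protein levels were not analysed here.

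All 7 genes lie on chromosome 15 (GRCm38, GENCODE M21). From low to high coordinate they are *Ly6d* (ENSMUSG00000034634.7, 74762056 to 74763620, minus strand), *Ly6e* (ENSMUSG00000022587.14, 74955051 to 74959905, plus strand), *Ly6i* (ENSMUSG00000022586.11, 74979534 to 74983430, minus strand), *Ly6a* (ENSMUSG00000075602.10, 74994877 to 74998031, minus strand), *Ly6c1* (ENSMUSG00000079018.10, 75044018 to 75048830, minus strand), *Ly6c2* (ENSMUSG00000022584.14, 75108158 to 75111970, minus strand) and *Ly6g* (ENSMUSG00000022582.4, 75155240 to 75159126, plus strand).

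The sequences of *Ly6c1* and *Ly6c2* are shown because both genes encode the sort marker and reads must be divided between them. Each has 396 coding bases, and 387 of these are identical (97.7%). The first 150 coding bases hold 6 of the 9 differences, which are in capitals:
Ly6c1: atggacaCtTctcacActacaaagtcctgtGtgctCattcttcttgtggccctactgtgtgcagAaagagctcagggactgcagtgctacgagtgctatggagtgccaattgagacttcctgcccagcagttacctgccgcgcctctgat
Ly6c2: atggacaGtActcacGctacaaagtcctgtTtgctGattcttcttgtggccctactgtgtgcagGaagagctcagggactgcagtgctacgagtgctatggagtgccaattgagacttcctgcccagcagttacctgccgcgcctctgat

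The longest identical coding stretch of the pair was 188 bases, which is longer than a read of this experiment. Of the 773 windows of 50 bases in the *Ly6c2* transcript, 255 (33.0%) also occurred in another gene, 252 of them in *Ly6c1*. The other members were further apart. *Ly6a* and *Ly6i* shared 86.4% of 405 coding bases, and *Ly6e* shared from 47.1% to 56.4% with the other 6. For *Ly6a*, 10.0% of the windows were found in another gene, for *Ly6i* 4.97%, and for *Ly6e* and *Ly6d* 0. The deposited expected counts, in which RSEM splits a read among the genes it fits, mirrored this only for the pair *Ly6c1* and *Ly6c2*. They were whole numbers, within 0.005, in 6 of 6 libraries for *Ly6a*, *Ly6d*, *Ly6e*, *Ly6g* and *Ly6i*, but in 0 of 6 for *Ly6c1* and *Ly6c2*. The sum of *Ly6c1* and *Ly6c2* was whole in 6 of 6 libraries.

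The DNA just before the start of transcription is shown for the same pair because the transcripts differed in level far more than in coding sequence. The 100 bases before the first RefSeq start (GRCm38.p6, minus strand) are at chr15:75048838-75048937 for *Ly6c1* and chr15:75111972-75112071 for *Ly6c2*. When aligned, 59 of 75 paired bases were identical (78.7%), and capitals mark bases that differed or had no partner:
Ly6c1: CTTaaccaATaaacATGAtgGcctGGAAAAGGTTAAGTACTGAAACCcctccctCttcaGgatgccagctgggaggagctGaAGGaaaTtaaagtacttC
Ly6c2: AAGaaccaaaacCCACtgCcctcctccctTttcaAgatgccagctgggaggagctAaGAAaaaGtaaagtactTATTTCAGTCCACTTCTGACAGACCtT

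These windows, from 250 bases before to 50 after each start, and those of *Ly6g* were searched on both strands for 2 motifs of IFN-responsive promoters. The core of the IFN-stimulated response element was taken as GAAA, any 2 bases and GAAA, and the IFN-γ-activated site as TTCNNNGAA. Neither was found in the windows of *Ly6c1*, *Ly6c2* or *Ly6g*. Of 32851 such windows in the genome, 3.44% held the first and 8.30% the second.

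Total expected counts were 4531782 to 7321380 a library in WT and 5442568 to 6916101 in *Ifnar1*-/- monocytes. Of the 12 monocyte markers, 12 were detected, with a summed level of 4305 to 6154 TPM (a transcript level scaled to length and to the library total) in WT and 5322 to 5686 TPM in *Ifnar1*-/- libraries. None of the 12 was called by edgeR, where 4 had an unadjusted p under 0.05, or by limma-voom, and DESeq2 called 2. These were *Fcgr1*, an Fc receptor, higher in WT, and *Ccr2*, the chemokine receptor that like Ly6C marks inflammatory monocytes, lower in WT. *Ccr2* had 587 to 694 normalized CPM (counts scaled to the adjusted library size) in WT monocytes, against 794 to 1269 normalized CPM in *Ifnar1*-/- monocytes. Counts of the targeted gene, *Ifnar1*, were 102 to 110 normalized CPM in *Ifnar1*-/- monocytes, against 111 to 153 normalized CPM in WT monocytes. The sources used here do not say which part of the gene the allele alters, so a count over the whole gene does not check the labels. Of 25 IFN-stimulated genes, 25 had a positive log2 difference of WT over *Ifnar1*-/-. edgeR called 23 of them higher in WT, against 1.67% of all genes tested. The labels do not tie libraries to animals, and the 3 recipients carried marrow of both genotypes, so p-values measure the spread between these libraries.

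Of the 7 members, 4 were abundant and 3 were close to the limit of detection. The level of *Ly6c2* was 1057, 1628 and 1376 TPM in libraries 1, 2 and 3 of WT monocytes, against 287, 611 and 562 TPM in those of *Ifnar1*-/- monocytes, and values are given in this order throughout. For *Ly6e*, which limits the entry of some viruses, the levels were 1104, 1149 and 947 TPM in WT and 502, 874 and 533 TPM in *Ifnar1*-/- libraries. Among 21983 protein-coding genes, *Ly6c2* ranked between 30 and 39 by TPM in WT and between 114 and 241 in *Ifnar1*-/- monocytes, and *Ly6e* ranked between 32 and 63 and between 81 and 142. Both genes were thus among the most abundant messages of the sorted cells.

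*Ly6a*, the stem cell antigen Sca-1 that activated lymphocytes also carry, stood lower, at 242, 435 and 325 TPM in WT and 50.9, 208 and 150 TPM in *Ifnar1*-/- libraries. *Ly6i* was measured at 122, 204 and 244 TPM in WT and 37.9, 152 and 120 TPM in *Ifnar1*-/- libraries. Over the 6 libraries the mean levels were 920 TPM for *Ly6c2*, 851 TPM for *Ly6e*, 235 TPM for *Ly6a* and 147 TPM for *Ly6i*. The 7 *Ly6* genes together had 2526 to 3418 TPM in WT and 880 to 1848 TPM in *Ifnar1*-/- libraries. Within single libraries, *Ly6a* was above *Ly6i* in 6 of 6, by 1.25 to 2.13 times, and below *Ly6e* in 6 of 6. The order of *Ly6c2* and *Ly6e* was not fixed: their TPM ratio was 0.958, 1.42 and 1.45 in WT monocytes, against 0.572, 0.699 and 1.05 in *Ifnar1*-/- monocytes.

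**Figure D1:**
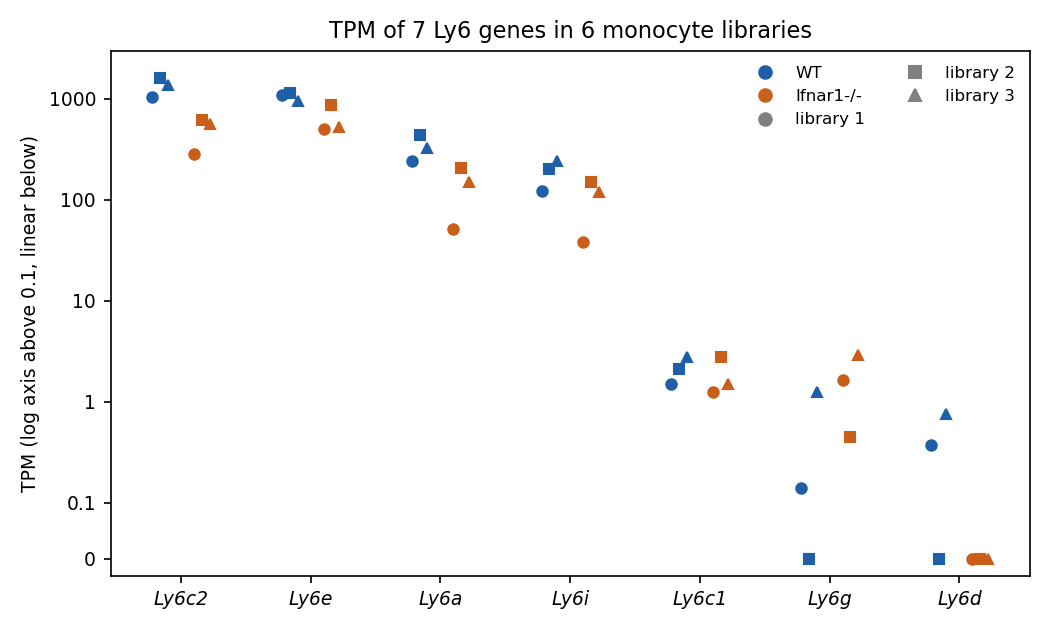
Level of each *Ly6* gene in TPM (log axis above 0.1, linear below) in the 3 WT (blue) and 3 *Ifnar1*-/- (orange) libraries, with the symbol shape giving the library number. *Ly6c2*, *Ly6e*, *Ly6a* and *Ly6i* lie between 37.9 and 1628 TPM, and *Ly6c1*, *Ly6g* and *Ly6d* between 0 and 2.94 TPM.

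*Ly6c1* was measured at 1.49, 2.11 and 2.78 TPM in WT and 1.25, 2.80 and 1.5 TPM in *Ifnar1*-/- libraries, and the ranges overlapped. Its expected counts were 9.52, 4.24 and 5.39 in WT and 3.28, 5.54 and 5.48 in *Ifnar1*-/- libraries, which was 320 to 875 times lower than those of *Ly6c2* in the same library. Nearly all reads assigned to Ly6C in these cells were therefore assigned to *Ly6c2*. How RSEM divided the shared reads cannot be seen in the gene tables.

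*Ly6g*, the neutrophil marker used to exclude cells in the sort, had 1, 0 and 4 counts in WT and 2, 2 and 4 counts in *Ifnar1*-/- libraries. Transcripts of neutrophil granules were present all the same: *Ngp*, a granule protein of developing neutrophils, had 524, 776 and 3431 counts in WT and 1331, 1062 and 3280 counts in *Ifnar1*-/- libraries. Library 3 held the most *Ngp* in either genotype, whereas *Ly6g* did not exceed 4 counts in any library. None of 12 neutrophil markers was at 0, and their summed level was 377 to 4548 TPM in WT and 1593 to 4586 TPM in *Ifnar1*-/- libraries. *S100a8* and *S100a9* had the highest mean levels of the list. In WT libraries they had 84.05 to 1229 and 95.07 to 1691 TPM, and in *Ifnar1*-/- libraries 595 to 1464 and 510 to 1891 TPM. Which cells carried these transcripts was not tested, so the sum is no measure of neutrophil content. None of the 12 was called by edgeR, where 1 had an unadjusted p under 0.05, or by limma-voom, and DESeq2 called 1, *Csf3r*, higher in WT. *Ly6d*, which marks progenitors committed to the B lineage, had 2, 0 and 2 counts in WT libraries and 0 in each *Ifnar1*-/- library. A count of 0 allows up to 3 counts, or 0.458 to 0.552 normalized CPM in *Ifnar1*-/- libraries, so a difference in *Ly6d* or *Ly6g* was not detectable at this depth. This limit covers counting error only.

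The genotypes were then compared with edgeR's quasi-likelihood test over all genes, on expected counts rounded to whole numbers, without a block for the library number. A gene was called where the Benjamini-Hochberg adjusted p did not exceed 0.05 and the change was 1.5-fold or more. The filter on low counts passed 4 of the 7 members, *Ly6a*, *Ly6c2*, *Ly6e* and *Ly6i*, and removed *Ly6c1*, *Ly6d* and *Ly6g*. Of the 7 members, 1 was called, *Ly6c2*, and it was higher in WT. Of all 11254 genes tested, 2.13% were called in either direction and 1.67% higher in WT. The count of members depended on the method. DESeq2 called 2 of the 4 members to which it gave an adjusted p. It called 1.99% of the 21259 genes with an unadjusted p, and those without an adjusted p could not be called. With no filter on low counts, edgeR called 4 members (4.10% of all genes). Limma on log2(TPM + 0.5) with no filter called 0 (0.399% of all genes).

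*Ly6c2* was the member that differed most clearly. WT monocytes had 726, 788 and 640 normalized CPM, against 177, 300 and 337 normalized CPM in *Ifnar1*-/- monocytes. Every WT library lay above every *Ifnar1*-/- library, and the lowest WT value was 1.90 times the highest *Ifnar1*-/- value. The means were 718 ± 74.6 and 271 ± 83.9 normalized CPM (SD, n = 3), a 2.65-fold difference with a 95% interval of 1.86 to 3.77. On the log2 scale the difference was 1.40 (SE 0.23, adjusted p = 0.00957, edgeR). With the counts of *Ly6c1* and *Ly6c2* added before the fit, so that the division of reads between them had no effect, it was again 1.40 (SE 0.23, adjusted p = 0.00969, edgeR).

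*Ly6a* had 243, 298 and 219 normalized CPM in WT monocytes, against 42.3, 150 and 124 normalized CPM in *Ifnar1*-/- monocytes. The groups did not overlap, and *Ifnar1*-/- library 1 was far below the other two. The means were 253 ± 40.2 and 105 ± 56.0 normalized CPM (SD, n = 3), and the log2 difference was 1.27 (SE 0.36, 95% interval 0.47 to 2.07). With an adjusted p of 0.113 from edgeR, *Ly6a* was not called, although its log2 difference was close to that of *Ly6c2*. Without *Ifnar1*-/- library 1 the log2 difference was 0.90 (adjusted p = 0.0951, edgeR).

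In WT monocytes *Ly6e* reached 1235, 879 and 726 normalized CPM, and in *Ifnar1*-/- monocytes 478, 689 and 497 normalized CPM. The groups did not overlap, but the lowest WT value was only 1.05 times the highest *Ifnar1*-/- value. The log2 difference was 0.77 (SE 0.23, 95% interval 0.27 to 1.27, adjusted p = 0.122, edgeR). WT library 1 was the highest, and without it the log2 difference was 0.54 (adjusted p = 0.299, edgeR). *Ly6e* was called by DESeq2, at 0.79 on the log2 scale (adjusted p = 0.0160). Over all alternatives the adjusted p for *Ly6e* ran from 0.00297 to 0.802.

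For *Ly6i* the values were 103, 117 and 142 normalized CPM in WT monocytes, against 27.5, 90.5 and 88.1 normalized CPM in *Ifnar1*-/- monocytes. The lowest WT library was 1.14 times above the highest *Ifnar1*-/- library, and *Ifnar1*-/- library 1 was again far below the others. The log2 difference was 0.81 (SE 0.35, 95% interval 0.03 to 1.60, adjusted p = 0.263, edgeR). Without *Ifnar1*-/- library 1 it was 0.45 (adjusted p = 0.406, edgeR), so the size of the *Ly6i* difference rested in large part on that library. Mitochondrial ribosomal RNA took 22.7% of its counts, against 12.3% to 19.6% in the other 5 libraries. With ribosomal RNA and mitochondrial genes left out of the fit, the log2 difference of *Ly6i* was 0.83 (adjusted p = 0.259, edgeR). The part of this RNA in the low *Ly6* values of *Ifnar1*-/- library 1 was not tested. On TPM the groups of *Ly6i* overlapped, with 122 TPM in WT library 1 and 152 TPM in *Ifnar1*-/- library 2. In WT library 1 protein-coding genes took 347986 TPM in all, against 432201 to 515995 in the other 5 libraries.

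**Figure D2:**
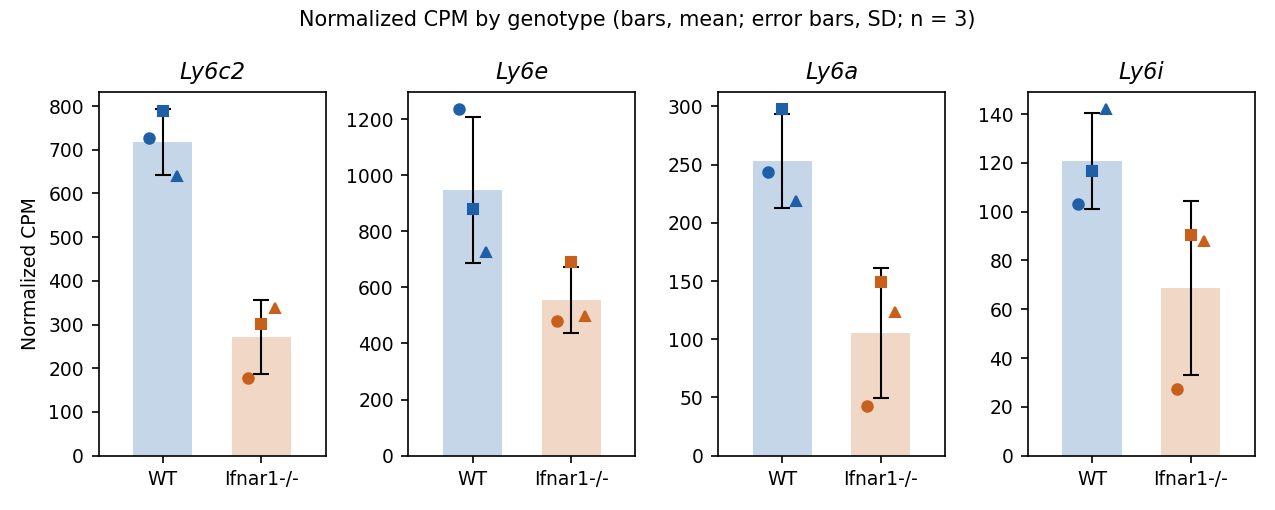
Normalized CPM of *Ly6c2*, *Ly6e*, *Ly6a* and *Ly6i* (linear axes from 0) in WT (blue) and *Ifnar1*-/- (orange) libraries, with circles for library 1, squares for library 2 and triangles for library 3. Bars are means and error bars SD (n = 3). In all 4 panels the lowest WT point lies above the highest *Ifnar1*-/- point, by 1.05 to 1.90 times, and *Ifnar1*-/- library 1 is the lowest of the 6.

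In all 4 members that were tested, every WT library was above every *Ifnar1*-/- library, which held for 11.1% of all genes tested. The 3 members that were not tested did not separate in this way. For each of the 4 the two-sided exact permutation test gave p = 0.1, the smallest value that 3 libraries against 3 can give. The median log2 difference of the 4 was 1.04, against -0.01 over all tested genes. In bulk RNA, fewer cells of a type and less RNA per cell cannot be told apart.

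**Figure D3:**
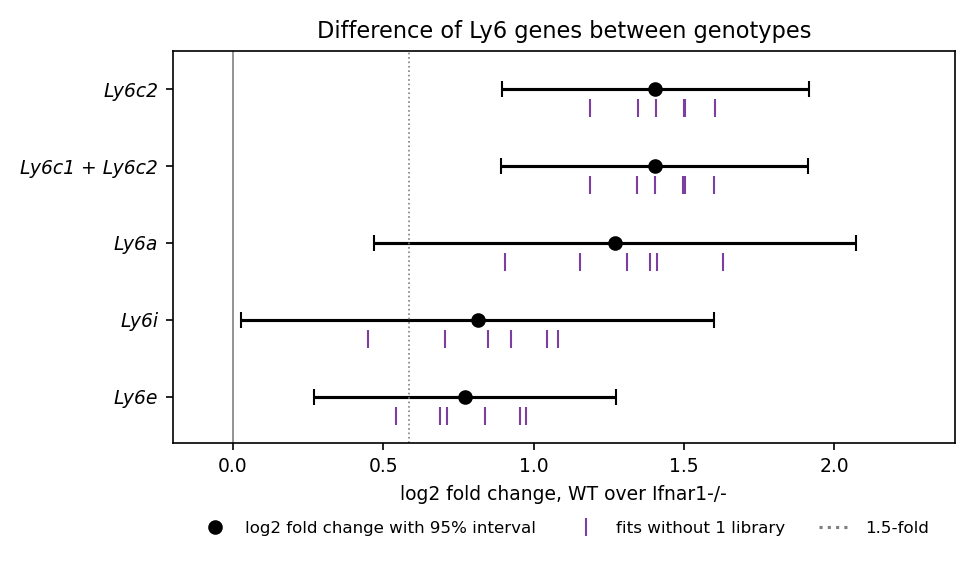
Log2 fold change of WT over *Ifnar1*-/- monocytes for the 4 tested *Ly6* genes and for *Ly6c1* and *Ly6c2* added together. Points and bars are the estimate and 95% interval from edgeR, purple ticks are fits that leave out 1 library, and the dotted line marks 1.5-fold. Estimates run from 0.77 for *Ly6e* to 1.40 for *Ly6c2*, and all ticks lie above 0.

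No pair of the 4 genes passed a test for a difference in the size of their genotype difference. Among the 6 pairs, the difference was 0.00393 on the log2 scale between *Ly6c2* and *Ly6a*, with p = 1 in the two-sided exact permutation test. It was 0.70 between *Ly6c2* and *Ly6e* (exact permutation p = 0.2, 0.4 after adjustment over the 6 pairs) and 0.46 between *Ly6a* and *Ly6i* (exact permutation p = 0.2, 0.4 after adjustment). With 3 libraries a group these tests cannot fall below 0.1, so they do not show that the genes moved alike. Within a genotype, *Ly6a* and *Ly6i* varied most among *Ifnar1*-/- libraries, where the highest was 3.54 and 3.29 times the lowest, against 1.91 times for *Ly6c2* and 1.44 times for *Ly6e*. Among WT libraries *Ly6e* varied most, 1.70 times, against 1.23 to 1.38 times for the other 3.

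**Figure D4:**
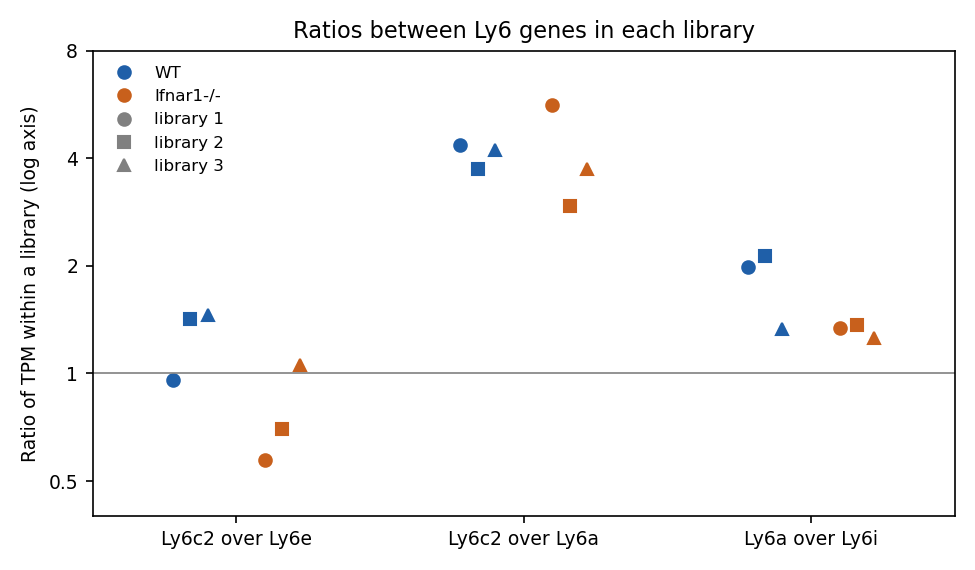
Ratio of TPM between pairs of *Ly6* genes within each library (log axis), for WT (blue) and *Ifnar1*-/- (orange), with the symbol shape giving the library number. *Ly6c2* over *Ly6e* runs from 0.572 to 1.45, *Ly6c2* over *Ly6a* from 2.94 to 5.64, and *Ly6a* over *Ly6i* from 1.25 to 2.13, with overlap between genotypes in each.

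The balance of both Ly6C genes was also compared. *Ly6c1* took 0.186%, 0.114% and 0.166% of the expected counts of the pair in WT monocytes, against 0.283%, 0.312% and 0.298% in *Ifnar1*-/- monocytes. All *Ifnar1*-/- shares were higher, and the log2 ratio of *Ly6c1* to *Ly6c2* was lower in WT by 0.97 on average (p = 0.1 in the two-sided exact permutation test, where no smaller value is possible). *Ly6c1* itself had at most 9.52 counts and overlapped between genotypes, and the share rests on how RSEM divided the shared reads. Among *Ifnar1*-/- libraries *Ly6c2* varied 1.91 times and the share of counts was 0.283% to 0.312%, on 3.28, 5.54 and 5.48 counts of *Ly6c1*. By TPM the share was less even in these libraries, at 0.434%, 0.456% and 0.266%, against 0.141%, 0.129% and 0.202% in WT libraries.

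The members were set beside the 25 IFN-stimulated genes. These had a median log2 difference of 3.92, and 23 of the 25 had a larger difference than each of the 4 *Ly6* genes. *Ly6c2* was at the 98.5th percentile of the log2 difference among all genes tested, *Ly6a* at the 98.2nd, *Ly6i* at the 96.0th and *Ly6e* at the 95.3rd. The *Ly6* genes were thus high in the distribution and below the typical IFN-stimulated gene of the list.

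Among the other genes with an LU domain, 35 of 38 listed were found under their symbols, and 26 of these were at 0 in all libraries. Of the genes found, only *Plaur*, the urokinase receptor, and *Cd177*, a neutrophil antigen, passed the filter. *Ly6a2* was listed but not found under that symbol. Its RefSeq promoter window overlaps *I830127L07Rik*, which passed the filter and is described with the neighbouring genes. *Plaur* had 2266, 992 and 1094 counts in WT and 1543, 1138 and 1093 counts in *Ifnar1*-/- libraries, a log2 difference of 0.25 (adjusted p = 0.526, edgeR). For *Cd177* the log2 difference was 0.06 (adjusted p = 0.958, edgeR). None of the genes found was called by edgeR or by any of the 18 alternatives, and none had an unadjusted p under 0.05 in edgeR. Among the genes found, *Lynx1*, a modulator of nicotinic receptors, was next in level, with 3 to 13 counts.

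Of the 52 non-member genes within 500 kb of the cluster on chromosome 15, 34 were at 0 in all libraries and 4 were tested. None was called, and none had an unadjusted p under 0.05, although 1 was called by edgeR with no filter on low counts. The most abundant was *I830127L07Rik*, a transcribed pseudogene in M21 at 75131377 to 75135128, between *Ly6c2* and *Ly6g*. The RefSeq promoter window of *Ly6a2*, one of the listed LU-domain genes, overlaps it (chr15:75135079-75135378, minus strand). *I830127L07Rik* had 170, 258 and 197 counts in WT and 155, 148 and 165 counts in *Ifnar1*-/- libraries. Its log2 difference was 0.57 (adjusted p = 0.286, edgeR). It shares 3 windows of 50 bases with the *Ly6c2* transcript and 18 with that of *Ly6i*. *Gm5960*, another pseudogene, had at most 25 counts and was not tested. *Them6* had a log2 difference of 0.44 (adjusted p = 0.526, edgeR).

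For each tested member, the genes with the most similar pattern were taken by Pearson's r over the 6 libraries, among 10919 genes. These libraries share the genotype contrast, so r describes likeness and includes that contrast. *Ly6c2* was most like *Mocs1*, an enzyme of molybdenum cofactor synthesis (r = 0.996), *Med26*, a Mediator subunit (r = 0.992), and *Flt4*, a receptor for vascular growth factors (r = 0.991). The mean level of *Flt4* was only 0.268 TPM, the lowest of the genes named here. *Ly6a* was most like *Cxcl16*, a chemokine (r = 0.998), *Sh3tc1* (r = 0.997) and *Pik3r6*, a regulatory subunit of a phosphoinositide kinase (r = 0.992). Likeness by r does not measure the size of a difference. The log2 difference was 0.32 for *Cxcl16* against 1.27 for *Ly6a*, but 1.91 for *Flt4* against 1.40 for *Ly6c2*. *Ly6i* was most like *Inpp5j* (r = 0.995), *Cul9* (r = 0.990) and *Aldh1l1*, an enzyme of folate metabolism (r = 0.988), and among the genes most like *Ly6e* were *Wbp1l* (r = 0.994) and *Lsr* (r = 0.993). None of these 11 genes was called by edgeR, limma-voom or DESeq2. DESeq2 gave an adjusted p to 10 of the 12 most similar genes, of which 1 is not reported here.

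Other cells that carry Ly6 antigens were looked for by their markers. T cells are known to carry *Ly6a* and *Ly6c2*, and how fully the CD11b+ gate of the sort left them out was not tested. The 12 T cell markers were all detected, none at 0, with a summed level of 24.9 to 61.6 TPM in WT and 9.27 to 23.8 TPM in *Ifnar1*-/- libraries. Of the 9 that were tested, 9 had a positive log2 difference (median 1.52), and 7 had an unadjusted p under 0.05. Of all 11254 genes tested, 5429 had a positive log2 difference and 2006 an unadjusted p under 0.05. None of the T cell markers was called by edgeR, limma-voom or DESeq2, and DESeq2 gave an adjusted p to only 6 of the 12. The part of T cells in the *Ly6* differences was not tested.

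Endothelial cells of the brain are known to express *Ly6c1*, *Ly6a* and *Ly6e*. In these chimeras they belong to the GFP+ recipient, whereas the gate took GFP-, CD45+ and CD11b+ cells. How fully the gate left them out was not tested. The 10 endothelial markers were all detected, with a summed level of 30.8 to 43.8 TPM in WT and 17.8 to 32.6 TPM in *Ifnar1*-/- libraries. Among the 4 that were tested, *Kdr* and *Vwf* were higher in WT, by 3.09 and 1.35 on the log2 scale (adjusted p = 0.0143 and 0.0189, edgeR). DESeq2 called *Flt1* as well, and limma-voom called only *Vwf*. *Cldn5* had at most 3 counts and *Cdh5* at most 14. The part of these cells in the *Ly6* differences was not tested. The 7 microglia and 8 plasmacytoid dendritic cell markers, of which 3 and 2 were tested, had summed levels of 14.3 to 17.7 and 28.1 to 37.0 TPM in WT and of 16.9 to 21.7 and 19.9 to 30.1 TPM in *Ifnar1*-/- libraries, and none was called by edgeR, where 0 had an unadjusted p under 0.05, or by limma-voom or DESeq2.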

How the data were processed

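The authors aligned paired-end reads of 75 bases to GRCm38 (STAR 2.6.0c and RSEM 1.2.31 per the labels) and deposited, for each library, an expected count, TPM and FPKM per gene. The labels and the methods name different stranded library kits. FPKM was not used. Expected counts were rounded and fitted with edgeR 4.0.16 in R 4.3.3 (TMM, filterByExpr with a minimum count of 10, quasi-likelihood test), with 3 WT against 3 *Ifnar1*-/- libraries and no block. The SE is the absolute log2 fold change over the square root of F. Deposited TPM, scaled per transcript length by the authors, gave levels between genes. Alternatives tried were RLE normalization, other filters, removal of ribosomal RNA and mitochondrial genes, a replicate block and leaving out each library. Other tools tried were DESeq2 1.42.0, limma 3.58.1 on log2(TPM + 0.5) and voom. The authors also used DESeq2, without naming its version. Limma on TPM rescaled to protein-coding genes was added after the data were seen. GENCODE M21 named 54165 of 54232 genes and left 67 unnamed. Coding sequences came from M21, and windows before starts from RefSeq (GRCm38.p6), which held 3 of 7 members. The rule named all members, the 3 most similar genes per tested member, called genes and the 3 most abundant among LU-domain and neighbouring genes, and markers only where a result turned on them. *Kdr*, *Vwf*, *Cldn5*, *Cdh5*, *Flt1*, *Csf3r*, *Ccr2*, *Fcgr1*, *Ngp*, *S100a8* and *S100a9* were chosen with their values seen. Members and lists were chosen with earlier results of these data known. The fits were tested on simulated counts. A few single genes are not reported here, 1 of the similar genes among them.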

Additional observations from a re-analysis of the deposited data

How the results depend on the processing

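No log2 difference of a tested *Ly6* gene changed sign under any alternative. The log2 difference of *Ly6c2* ran from 1.19 to 1.60 when each library was left out (adjusted p from 0.0156 to 0.0391) and was no longer past the threshold only with limma on log2(TPM + 0.5) without a filter (1.53, adjusted p = 0.343). In that fit 0 members and 85 genes in all were called, and the sum of *Ly6c1* and *Ly6c2* was 1.52 (adjusted p = 0.347). edgeR with no filter on low counts called 872 genes (4.10% of 21265), 4 members and 1 gene of the neighbourhood. The log2 difference was then 1.26 for *Ly6a* (adjusted p = 3.4e-10), 0.77 for *Ly6e* (0.00297) and 0.81 for *Ly6i* (0.000247). DESeq2 called 424 genes and 2 members, adding *Ly6e* at 0.79 (adjusted p = 0.0160). Limma on log2(TPM + 0.5) and log2(TPM + 1) called 125 and 128 genes. The cause of these changes was not tested. Leaving out each library gave 119 to 245 calls in all, with 148, 119 and 120 without WT library 3, *Ifnar1*-/- library 1 and *Ifnar1*-/- library 3, and 1 member in each case. It gave 0.90 to 1.63 for *Ly6a*, 0.54 to 0.97 for *Ly6e*, 0.45 to 1.08 for *Ly6i*, 1.19 to 1.60 for the sum, and -1.11 to -0.76 for the log2 ratio of *Ly6c1* to *Ly6c2*.

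Libraries share replicate numbers, but the labels do not say that a number marks a mouse. The deviations from the group means of same-numbered libraries correlated at 0.0872, 0.0265 and 0.289. The value for library 3 was the highest of all pairs between genotypes. WT library 3 was at -0.122 and -0.144 with *Ifnar1*-/- libraries 1 and 2. WT library 1 correlated more with *Ifnar1*-/- library 2 (0.101) than with library 1. These values go both ways, and no pairing was established. With the replicate block 220 genes and 1 member were called in place of 240 and 1, with 1.45 for *Ly6c2* (adjusted p = 0.0122, edgeR), 1.43 for *Ly6a* (0.0586), 0.97 for *Ly6i* (0.123) and 0.75 for *Ly6e* (0.133). It changed no call of a member. Depth limits *Ly6c1*, *Ly6d* and *Ly6g*, which had fewer than 10 counts in every library.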

Other observations

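Of the 12 neutrophil markers, 9 were highest in library 3 of both genotypes, and *Mmp8*, *Cxcr2* and *Csf3r* were not. *S100a8* was at 34.6, 155 and 338 normalized CPM in libraries 1, 2 and 3 of WT monocytes, against 227, 178 and 523 normalized CPM in those of *Ifnar1*-/- monocytes. *Elane*, an elastase made by granulocyte precursors, had 5.41, 27.8 and 48.8 normalized CPM in WT and 27.3, 15.9 and 98.0 normalized CPM in *Ifnar1*-/- libraries. *Mmp8*, a collagenase of neutrophil granules, varied less, with 126, 173 and 166 normalized CPM in WT monocytes and 146, 212 and 192 normalized CPM in *Ifnar1*-/- monocytes. *Csf3r*, a growth factor receptor, was at 129, 82.5 and 92.0 normalized CPM in WT monocytes, against 42.5, 67.8 and 62.0 normalized CPM in *Ifnar1*-/- monocytes. *Cd177*, which is not on that list, had 48.0, 55.3 and 126 normalized CPM in WT and 64.6, 49.6 and 105 normalized CPM in *Ifnar1*-/- libraries. *S100a8*, *Elane* and *Cd177* were highest in library 3 of each genotype, and none of these 3 was called by edgeR, limma-voom or DESeq2, whereas *Csf3r* was called by DESeq2 alone. They were chosen with their values known.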
